A study of Mus musculus with 6 samples.

Results

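In the map of TAF4A binding in mouse muscle stem cells (MuSCs), 43 of 1131 peaks were listed for genes with the name of a sequence-specific transcription factor family, and these belonged to 29 of the 900 genes with a listed peak. The peaks were chosen by gene symbol alone, with no use of counts, position or sequence. The 29 genes comprised 10 stress and immediate-early genes with 17 peaks, 6 myogenic genes with 11 peaks, 5 KLF and SP genes with 6 peaks and 4 zinc-finger genes of the ZFP and ZBTB type with 5 peaks. E2f3 and Nfya made up a group of other factors with 2 peaks. The names of Zfp36 and Zfp36l1, with 1 peak each, fit the family pattern, but their products bind RNA and are not transcription factors, so they were kept apart. Several further members do not bind DNA themselves either, among them the ID proteins and the NF-kB inhibitor encoded by Nfkbia.

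TAF4A is a subunit of TFIID, the general factor that binds core promoters and helps to place RNA polymerase II. Sequence-specific factors bind short DNA motifs and direct such machinery to chosen genes. Immediate-early genes such as Jun and Myc respond within minutes to growth factors or stress, without new protein synthesis. In MuSCs, PAX7 marks the stem cell state, MYF5 and MYOD1 mark commitment, and myogenin (Myog) and MEF2 proteins drive differentiation. ID proteins and HES1 hold MYOD1 activity back.

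CUT&RUN was performed on in vitro cultured, activated and proliferating MuSCs of wild-type C57BL/6 mice, with 3 libraries made with a TAF4A antibody and 3 with IgG, a control antibody. In this method, an antibody guides a nuclease that releases the DNA near its target. Only the counts of the 3 TAF4A libraries (replicates 1, 2 and 3) were analysed here, so no value below is an enrichment over IgG. The reporting summary of the study calls these libraries biological replicates. Neither it nor the labels say whether they came from separate animals or cultures. Counts over all peaks ranged from 24826 to 47723 per library. Counts are given for replicates 1, 2 and 3 in this order, followed by the normalised count, which is scaled to the mean library size by the TMM method of edgeR, as mean ± SD (n = 3). A peak was listed for 3 of 8 marker genes of MuSCs (Myod1, Itga7 and Des, but not Pax7) and for none of the 3 endothelial, 3 blood, 3 fibro-adipogenic or 3 differentiated muscle markers. A peak is not a measure of expression, and since 3.79% of all protein-coding genes had one, a count of 0 in lists this short says little.

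The sequence at the start of a few members shows the motifs that the results below turn on. All sequences are GRCm38 on the strand of the gene, 5′ to 3′, and end 1 base before the annotated gene start, except for the distal elements. Capitals mark the searched motifs, on either strand. The NF-Y motif was searched as CCAATCA and appears as its reverse complement where it lies on the opposite strand. The SP1 motif, a GC box, was searched as GGGCGGG in the same way. Muscle bHLH factors bind the E-box, searched as CAGCTG. The TATA box, where the TATA-binding protein of TFIID binds, was searched as TATAAA. The stress genes Atf4 (chr15:80254984-80255183, plus strand), Ier5 (chr1:155099637-155099836, minus strand) and Ier5l (chr2:30474220-30474419, minus strand) and the KLF gene Klf10 (chr15:38300707-38300856, minus strand) are shown for their NF-Y motifs.
Atf4: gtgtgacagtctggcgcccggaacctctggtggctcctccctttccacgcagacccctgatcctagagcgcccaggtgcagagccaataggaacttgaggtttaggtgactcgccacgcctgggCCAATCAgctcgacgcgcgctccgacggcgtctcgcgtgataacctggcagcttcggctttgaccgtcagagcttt
Ier5: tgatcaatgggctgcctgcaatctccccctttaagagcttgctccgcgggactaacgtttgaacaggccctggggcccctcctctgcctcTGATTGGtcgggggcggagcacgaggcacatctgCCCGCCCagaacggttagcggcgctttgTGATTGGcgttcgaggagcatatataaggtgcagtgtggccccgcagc
Ier5l: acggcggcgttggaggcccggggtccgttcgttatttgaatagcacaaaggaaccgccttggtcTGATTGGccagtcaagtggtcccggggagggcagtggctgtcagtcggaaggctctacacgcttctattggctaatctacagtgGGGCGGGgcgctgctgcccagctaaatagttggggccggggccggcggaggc
Klf10: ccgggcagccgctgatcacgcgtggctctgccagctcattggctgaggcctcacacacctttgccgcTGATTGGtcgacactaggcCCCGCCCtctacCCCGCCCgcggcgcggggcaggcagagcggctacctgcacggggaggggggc

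Myod1 (chr7:46376274-46376473, plus strand) is shown for its E-box, and Id1 (chr2:152736101-152736250, plus strand) and Junb (chr8:84978719-84978868, minus strand) for their TATA boxes. Of the 200 bases of Myod1, 193 lay in the peak, and all other stretches lay in their peaks whole.
Myod1: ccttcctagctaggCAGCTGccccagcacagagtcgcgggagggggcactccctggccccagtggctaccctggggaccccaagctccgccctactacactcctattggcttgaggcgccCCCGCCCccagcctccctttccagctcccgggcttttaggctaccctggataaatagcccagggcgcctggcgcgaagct
Id1: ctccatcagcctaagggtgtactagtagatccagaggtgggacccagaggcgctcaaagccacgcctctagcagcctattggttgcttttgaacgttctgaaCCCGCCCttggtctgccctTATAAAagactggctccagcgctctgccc
Junb: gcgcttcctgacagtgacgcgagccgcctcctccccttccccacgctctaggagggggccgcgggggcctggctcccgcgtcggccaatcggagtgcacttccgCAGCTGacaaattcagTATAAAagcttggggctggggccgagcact

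Distal peaks of the ID genes are shown for their E-boxes. They are the 224 bases of the peak upstream of Id3 (chr4:136140451-136140674) and the central 100 bases of the strongest upstream peak of Id1 (chr2:152729725-152729824), both on the plus strand.
Id3 upstream: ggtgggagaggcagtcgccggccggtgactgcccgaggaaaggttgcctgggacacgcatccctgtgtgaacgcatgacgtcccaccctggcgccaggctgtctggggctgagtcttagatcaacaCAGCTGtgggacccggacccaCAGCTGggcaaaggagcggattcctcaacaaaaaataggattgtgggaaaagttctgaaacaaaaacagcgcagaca
Id1 upstream: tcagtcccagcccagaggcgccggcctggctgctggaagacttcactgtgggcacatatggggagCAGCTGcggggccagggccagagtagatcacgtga

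It was first asked which factor genes had a peak at all. A listed peak was found for 832 of 21951 protein-coding genes, which is 3.79% (dotted line in the plot of shares by group). The 655 protein-coding genes that fit the family names were close to this background, with 29 genes and a share of 4.43% (95% Wilson interval 3.10 to 6.29). The groups within them differed. The share was 16.9% (10 of 59, interval 9.48 to 28.5) for stress and immediate-early genes, 18.2% (6 of 33, 8.61 to 34.4) for myogenic genes and 19.2% (5 of 26, 8.51 to 37.9) for KLF and SP genes. For zinc-finger genes it was 0.893% (4 of 448, 0.348 to 2.27). The intervals of the first 3 groups did not overlap that of the zinc-finger genes, and all 4 of these intervals left out 3.79%. The myogenic share rested largely on 3 of 4 ID genes, whose products do not bind DNA, and on 2 of 9 HES and HEY genes. It is thus not a trait of the myogenic factors as a whole. For other factors the share was 3.39% (2 of 59, 0.935 to 11.5), which includes the background. These intervals cover counting error only and treat genes as separate draws, although genes of a family share sequence and function.

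**Figure D1:**
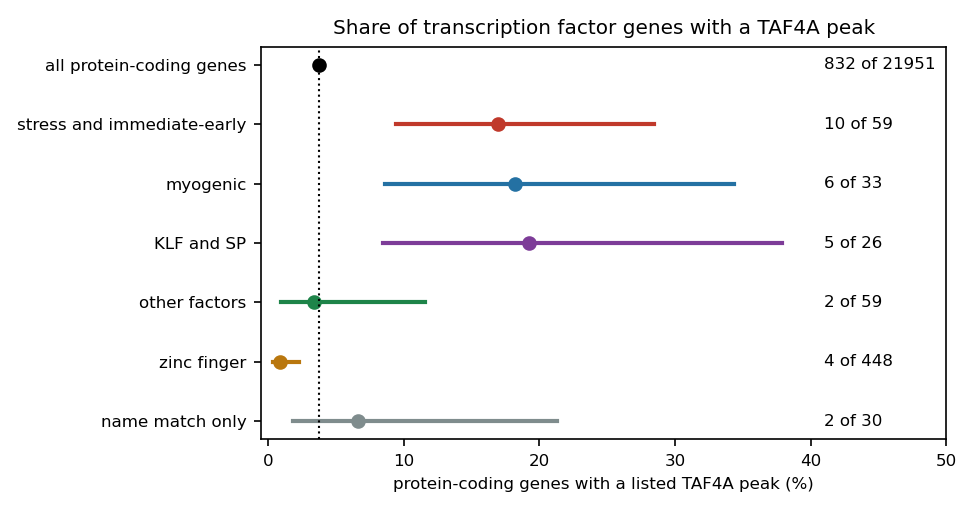
Share of protein-coding genes with a listed TAF4A peak (x axis, percent) for each group of factor genes (y axis). Points are shares, lines are 95% Wilson intervals, the dotted line is the share over all protein-coding genes (3.79%), and numbers at the right are genes with a peak of all genes in the group. Stress and immediate-early, myogenic, and KLF and SP genes lie between 16.9% and 19.2%, and zinc-finger genes at 0.893%.

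The genes with a peak are given by family, as counts, since most families are too small for their shares to be told apart. Among stress and immediate-early genes, all 4 IER genes (Ier2, Ier3, Ier5 and Ier5l), 2 of 7 AP-1 genes (Jun and Junb), 2 of 4 MYC and MAX genes (Myc and Max), 1 of 7 NF-kB genes (Nfkbia) and 1 of 15 ATF and CREB genes (Atf4) had a peak. No peak was listed for the 4 EGR, 5 C/EBP, 7 STAT and 4 FOXO genes or for Hif1a and Srf. Among myogenic genes, 3 of 4 ID genes (Id1, Id2 and Id3) and 2 of 9 HES and HEY genes (Hes1 and Hes6) had a peak. Of the 4 myogenic regulatory factors, which are Myod1, Myf5, Myog and Myf6, only Myod1 had a listed peak. None was listed for Pax3 and Pax7, the 4 MEF2 or 4 TEAD genes. Among zinc-finger genes, a peak was listed for 3 of 41 ZBTB genes, for 1 of 388 ZFP genes and for 0 of 19 ZSCAN genes.

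Several well-known factors were thus without a listed peak. Egr1 and Fos, immediate-early genes like Jun, had their nearest peak 70.9 kb and 127.4 kb from their starts. The nearest peak was 190.7 kb from Myog, 1441 kb from Pax7 and 7899 kb from Myf5. Over the 18 named genes without a peak the distance ranged from 42.7 kb at Nfyc to 22356 kb at Hey1, with a median of 1134 kb. Besides those named, these genes were Mef2a, Mef2c, Mef2d, Tead1, Tead4, Heyl, Srf, Hif1a, Nfyb, Yy1 and Pax3. The table lists called peaks only, so weaker binding at these genes was not measured.

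A further 5 genes with a name of these families had a peak near a start but listed for another gene or for none. Atf3, a stress-induced ATF factor, had an unassigned peak 61 bases from a transcript start (chromosome 1, 191183249 to 191183553) with counts of 83, 24 and 36 and a normalised count of 44.6 ± 16.1 (SD, n = 3). Runx1 likewise had an unassigned peak 66 bases away with counts of 34, 24 and 40, or 33.6 ± 8.02 (SD, n = 3). The peaks near Atf5, Zfp91 and Zbtb8os were listed for Nup62, Lpxn and Rbbp4. Zbtb8os is named for its place opposite a ZBTB gene, but was counted with the ZBTB genes by its name. When genes were taken by peak centres within 1000 bases of a transcript start instead of by listing, the share became 18.6% for stress and immediate-early genes, 1.34% for zinc-finger genes and 4.29% for all protein-coding genes. In addition, Zfp143, Zfp207 and Zfp512 were listed under Znf symbols, which the family pattern does not match. With these 3 genes, added after their listing was seen, the zinc-finger share was 1.55% (7 of 451, interval 0.754 to 3.17).

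Next, the counts at the stress and immediate-early genes were examined. The peak at the start of Atf4, which encodes the central factor of the integrated stress response (chromosome 15, 80254872 to 80255481), had counts of 379, 132 and 154 and a normalised count of 210.2 ± 67.7 (SD, n = 3), rank 3 among all peaks. Replicate 1 was the highest library also after scaling, with 287.3 against 182.3 and 160.9. In bulk cells, binding in fewer cells and less binding per cell cannot be told apart. A further peak of Atf4, 841.5 bases downstream of the start, had 16, 8 and 18 counts.

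The IER genes covered a wide range. Ier5, whose product is known as a regulator of the heat shock response (chromosome 1, 155099580 to 155099868), had 123, 76 and 84 counts and 95.3 ± 8.79 (SD, n = 3). At Ier5l, its paralog (chromosome 2, 30474209 to 30474441), the counts were 93, 59 and 70, or 75.0 ± 5.74 (SD, n = 3). Both were even between libraries after scaling. Ier3 had 15, 17 and 15 counts, and the peak listed for Ier2 had 49, 11 and 32. The Ier2 peak was centred 1228 bases upstream of the gene, and the start of Gm26664 was nearer to it.

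The AP-1 genes Jun and Junb encode partners that bind DNA as dimers. Junb (chromosome 8, 84978631 to 84978979) had 107, 51 and 75 counts at its start, or 76.6 ± 5.54 (SD, n = 3). Jun (chromosome 4, 95052086 to 95052455) had 64, 69 and 74 counts, or 73.7 ± 23.6 (SD, n = 3). While their means were close, Jun had its lowest normalised count in replicate 1 (48.5, against 95.3 and 77.3), and Junb was even. The Jun peak also lies within Junos, an antisense gene, and CUT&RUN counts cannot be assigned to a strand.

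The MYC network genes had lower counts than Atf4, Jun and Junb at their starts. The higher of the 2 peaks of Myc, which drives growth and proliferation, had 34, 16 and 27 counts, or 25.4 ± 3.08 (SD, n = 3). Max, which encodes the dimer partner of MYC, had 19, 3 and 7. Nfkbia, which encodes the inhibitor of NF-kB, had 50, 18 and 29 counts, or 31.0 ± 6.55 (SD, n = 3). Over all 1131 peaks the median normalised count was 20.2, so that Myc and Nfkbia were above and Max was below it.

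Among the myogenic genes, the ID genes had the highest counts. ID proteins bind bHLH factors such as MYOD1 and keep them off DNA. Id3 (chromosome 4, 136143242 to 136144008) had 247, 97 and 145 counts, or 157.6 ± 27.2 (SD, n = 3). Id1 (chromosome 2, 152735946 to 152736385) had 213, 95 and 117 counts at its start, or 138.3 ± 20.6 (SD, n = 3). For Id2 (chromosome 12, 25096019 to 25096386), the counts were 195, 92 and 99, or 126.1 ± 22.2 (SD, n = 3). The 3 genes ranked 12, 20 and 24 among all peaks, and neighbours in this order differed by less than their SD. The Id3 peak was the widest of all peaks, with 766 bases. Per 100 bases of peak it had 20.6 normalised counts, against 31.5 at Id1 and 34.4 at Id2, so the order of the 3 genes turned around with width taken into account.

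The other myogenic genes had lower normalised counts per peak, although per 100 bases Hes6 (21.2) and Hes1 (20.7) were at the level of Id3 (20.6). Myod1 (chromosome 7, 46376280 to 46376620) had 71, 62 and 57 counts, or 66.3 ± 17.0 (SD, n = 3), rank 106. Hes1, a Notch effector, had 128, 61 and 51 counts, or 78.2 ± 22.5 (SD, n = 3). Hes6, a HES family member known to oppose HES1, had 66, 34 and 57, or 52.2 ± 6.57 (SD, n = 3). These 3 genes overlapped in normalised counts between libraries. The normalised count of Myod1 was below that of each of the 3 ID genes in every library. Per 100 bases of peak this did not hold, since Myod1 had 25.2 and Id3 17.5 in replicate 2.

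KLF and SP proteins bind GC-rich boxes with zinc fingers and were counted apart from the ZFP and ZBTB genes. Klf6, an injury-induced factor (chromosome 13, 5861134 to 5861571), had 223, 80 and 119 counts, or 134.6 ± 30.6 (SD, n = 3). Sp1, which encodes the factor of the SP1 motif (chromosome 15, 102405874 to 102406304), had 201, 79 and 84, or 116.4 ± 32.9 (SD, n = 3). Klf10, known as an early response gene of TGF-beta signalling, had 82, 51 and 43 counts, or 59.2 ± 13.0 (SD, n = 3). Klf7 had 44.8 ± 10.1 and Klf2 24.4 ± 7.02 normalised counts (SD, n = 3). All 6 peaks of this group were at promoters.

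Both other factors ranked in the upper part of the map, at 41 and 188. E2f3, a cell cycle factor (chromosome 13, 29986019 to 29986305), had 145, 71 and 88 counts, or 100.0 ± 9.14 (SD, n = 3), and with 35.0 normalised counts per 100 bases it had the highest mean of the members on this scale. Atf4 and Id2 followed with 34.5 and 34.4, a difference within the SD between libraries. Nfya encodes the DNA-binding subunit of NF-Y (chromosome 17, 48409511 to 48409785) and had 55, 37 and 48 counts, or 47.7 ± 5.18 (SD, n = 3). No peak was listed for Nfyb and Nfyc, which encode its histone-fold partners.

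The 4 zinc-finger genes with a peak fell far apart. Zbtb7a, which encodes a BTB domain repressor, had 79, 41 and 50 counts, or 56.3 ± 3.84 (SD, n = 3). The peak listed for Zbtb37 (chromosome 1, 161034869 to 161035216) had 139, 56 and 85 counts, or 90.5 ± 14.1 (SD, n = 3), but its centre lay in an exon of Gas5, a non-coding host gene of small nucleolar RNAs, and nearer to the start of Gas5 than to that of Zbtb37. Zbtb3 and Zfp267 had 14.8 ± 7.48 and 11.2 ± 4.43 normalised counts (SD, n = 3), below the median of all peaks. The annotation used here names Zfp267 D3Ertd254e. Since the authors removed reads with several matches, genes with near-identical copies, which are common among ZFP genes, could lose counts and peaks, and this was not tested. Zfp36l1 had 18, 11 and 8 counts, and the peak of Zfp36 is described below.

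**Figure D2:**
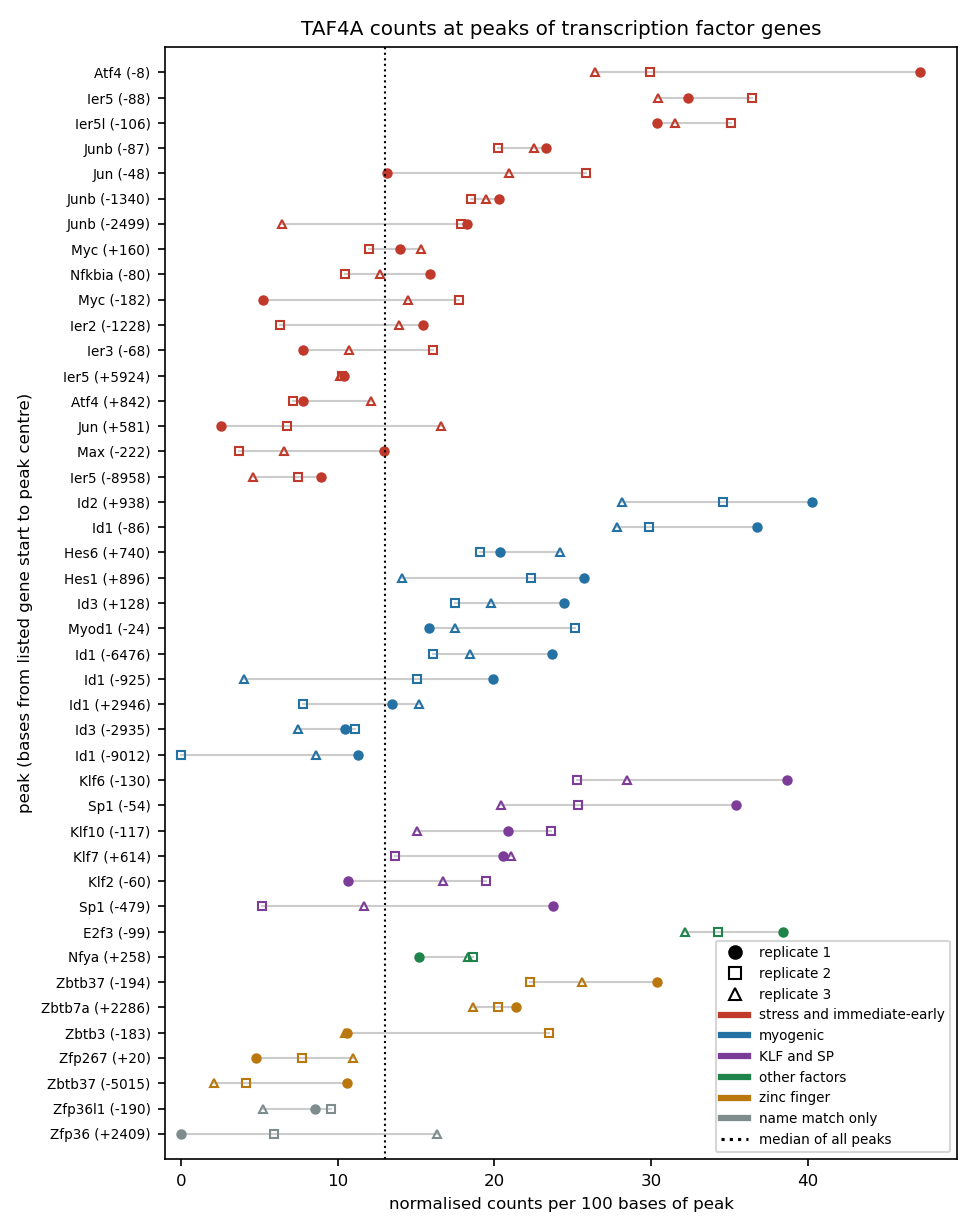
Normalised TAF4A counts per 100 bases of peak (x axis) at the 43 peaks of factor genes (y axis, with the distance in bases from the listed gene start to the peak centre, negative upstream and rounded to whole bases), coloured by group. Filled circles, squares and triangles are replicates 1, 2 and 3, grey lines span the libraries, and the dotted line is the median of all peaks (13.0). The highest peaks of Atf4, Ier5, Ier5l, Id1, Id2, Klf6, Sp1 and E2f3 are among those above 20 in every library.

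Peaks of factor genes had a higher median than other peaks in every library. The median log2 normalised count of the 43 peaks was above the median of the remaining 1088 peaks by 0.91 in replicate 1, 0.53 in replicate 2 and 1.04 in replicate 3, with a mean of 0.83 ± 0.26 (SD, n = 3). Factor gene peaks also had a larger width, with medians of 240 and 159 bases, and wider peaks hold more counts. Per base, the difference was 0.31, 0.45 and 0.27 on the log2 scale, with a mean of 0.34 ± 0.10 (SD, n = 3). Both differences were larger than their spread between libraries and had the same direction in 3 of 3 libraries. In normalised counts per 100 bases, the median over peaks of the mean of the libraries was 19.5 for myogenic, 19.1 for KLF and SP, 14.8 for zinc-finger and 13.0 for stress and immediate-early genes, beside 13.0 for all peaks. The median of the last group was thus at the level of all peaks, although its highest peaks were among the strongest of the map. With the highest peak of each gene only, the median was 20.0 per 100 bases for the 29 factor genes and 13.4 for the 871 other genes.

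The position of the peaks was examined next. Of the 43 peaks, 33 (76.7%, 95% Wilson interval 62.3 to 86.8) were at promoters, with the centre within 1000 bases of an annotated transcript start, close to the 82.1% of all peaks. The highest peak of a gene was at a promoter for 27 of 29 genes (93.1%), close to the 91.0% of the 871 other genes. The exceptions were Ier2 and Zfp36, whose peak was in a coding exon 2409 bases downstream of the start. Among the 14 further peaks, 6 (42.9%, 21.4 to 67.4) were at promoters. This share was not compared with that of further peaks of other genes. At some genes the peak was at an inner start. The peak of Hes1 was centred 896.5 bases downstream of the listed start and 59.5 bases upstream of the nearest start of another Hes1 transcript, and those of Id2, Hes6, Klf7 and Zbtb7a lay in the same way 110.5, 76, 177.5 and 447 bases upstream of an inner start.

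Factor genes often had more than 1 peak. This was so for 9 of 29 genes (31.0%, 95% Wilson interval 17.3 to 49.2), against 9.89% of the 900 listed genes. They included 5 of the 10 stress and immediate-early genes (Atf4, Jun, Junb, Ier5 and Myc), Id1 and Id3 of the 6 myogenic genes, Sp1 and Zbtb37. Id1 had 5 peaks over 12080 bases. Besides the start, its strongest peak was centred 6476.5 bases upstream, with 99, 37 and 56 counts or 61.6 ± 12.3 (SD, n = 3), close to the level at Myod1. The other 3 peaks of Id1, at 9011.5 and 925 bases upstream and 2946 bases downstream, had 8.03 ± 7.14, 20.3 ± 12.7 and 15.1 ± 4.78 normalised counts (SD, n = 3).

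Junb had 3 peaks over 2667 bases, and the peak 1339.5 bases upstream had 56, 28 and 39 counts, or 40.6 ± 1.89 (SD, n = 3). The third peak of Junb, 2499 bases upstream, had 39, 21 and 10. The peaks of Ier5 spanned 15071 bases, with weak peaks 5923.5 bases downstream (24, 13 and 17 counts) and 8958 bases upstream (24, 11 and 9). Upstream of Id3, a peak at 2935 bases had 31, 18 and 16 counts, or 21.7 ± 4.36 (SD, n = 3). Each distal peak was assigned to these genes by distance alone.

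**Figure D3:**
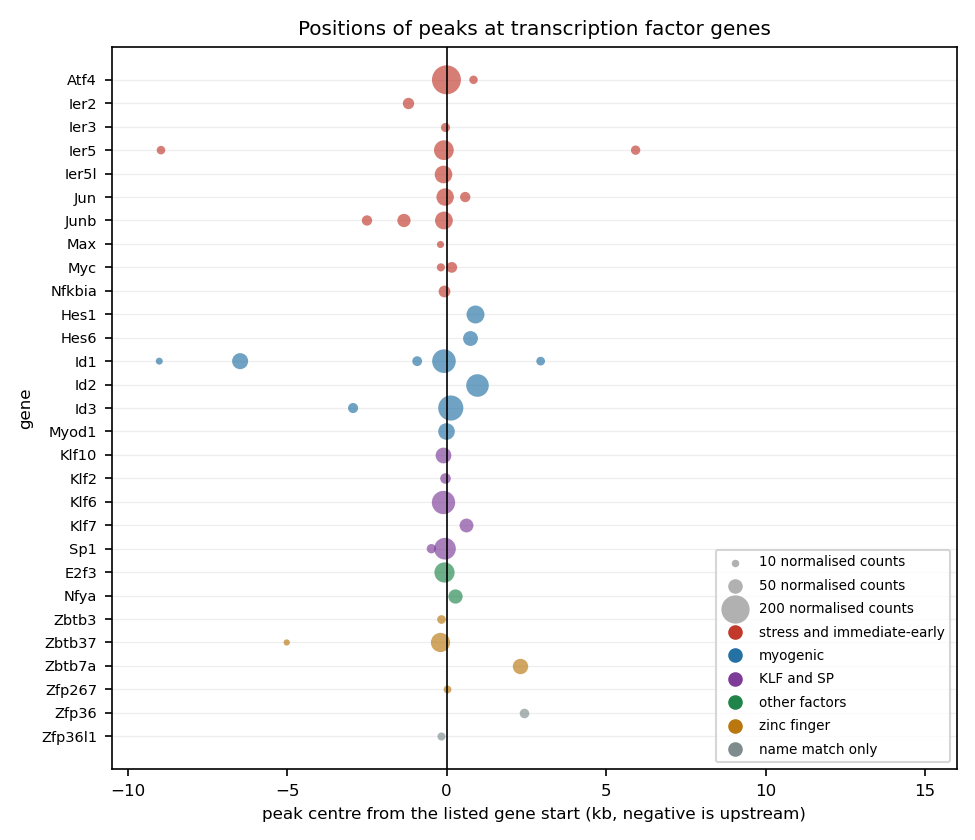
Distance from the listed gene start to the peak centre (x axis, kb, negative is upstream) for each of the 29 factor genes (y axis), coloured by group. The area of a circle grows with the mean normalised count. Most circles lie at the start, and Id1 has 5 peaks spread over 12080 bases.

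Motifs were then searched in the peaks, on both strands. The NF-Y motif was in 7 of 43 peaks (16.3%, 95% Wilson interval 8.12 to 30.0), beside 17.5% of all peaks, and the SP1 motif in 19 (44.2%, 30.4 to 58.9), beside 35.9%. Neither share stood apart from that of all peaks. The peaks with the NF-Y motif were those at the starts of Atf4, Ier5, Ier5l, Klf6, Klf10, Nfya and Zfp267. In the sequences printed above, the motif is centred 73 bases upstream of the start of Atf4, 45 and 107 bases upstream of Ier5, 133 bases upstream of Ier5l and 80 bases upstream of Klf10. It was 220 bases upstream of Klf6 and 47 bases upstream of Zfp267. In the promoter of Nfya, the gene of the NF-Y subunit itself, the motif occurred both 2 bases upstream and 27 bases downstream of the nearest start.

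None of the 11 myogenic peaks had the NF-Y motif CCAATCA (95% Wilson interval 0 to 25.9%, which includes the share of all peaks). With the shorter CCAAT, 6 of the 11 had a match (54.5%, 28.0 to 78.7), beside 45.2% of all peaks. The E-box CAGCTG was in 6 of them (54.5%, 28.0 to 78.7), beside 12.9% of all peaks and 20.9% of all factor gene peaks. In the central 200 bases of the peaks, a window of equal length for all, it was 5 of 11 (45.5%, 21.3 to 72.0), beside 13.7%. The 6 peaks belonged to Myod1, Id2, Hes6, the upstream peak of Id3 and the upstream peaks of Id1 at 6476.5 and 925 bases, so they came from 5 genes. At Myod1 the E-box was centred 183.5 bases upstream of the start, and the upstream peak of Id3 held 2, 21 bases apart. Outside the group, Junb at its start and at 2499 bases upstream and Ier3 had an E-box, and none of the zinc-finger, KLF or SP peaks had one. A motif match is a description of the sequence and does not show that a factor binds there.

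A TATA box was found in 6 of 43 peaks (14.0%, 6.56 to 27.3), beside 10.8% of all peaks. In Id1 and Junb it was centred 26.5 and 27.5 bases upstream of the annotated start, and in Hes6 25.5 bases upstream of its nearest start, the usual place of a TATA box. The AP-1 motif TGACTCA was in 1 peak (2.33%, all peaks 6.98%), that of Atf4 at 841.5 bases. The YY1 motif AAGATGG was in 2 peaks (4.65%, all peaks 2.92%), the ETS motif CCGGAAG in 3 (6.98%, all peaks 8.84%) and the CRE motif TGACGTCA in 1 (2.33%, all peaks 2.56%). The NRF1 motif GCATGCGC and the CArG box of SRF were in none, and were in 2.92% and 1.59% of all peaks.

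The same motifs were searched around the starts of factor genes with and without a peak, from 250 bases upstream to 50 bases downstream. The NF-Y motif was in this window in 4 of 10 stress and immediate-early genes with a peak (40.0%, 16.8 to 68.7) and in 5 of 49 without (10.2%, 4.44 to 21.8). It was in 9.11% of all protein-coding genes and in 21.8% of the other protein-coding genes with a listed peak, a share within the first interval. Zinc-finger genes without a peak had it more often than all protein-coding genes, in 77 of 444 (17.3%, 14.1 to 21.1). The SP1 motif was in 5 of 10 stress and immediate-early genes with a peak and 25 of 49 without. The E-box was in 4 of 6 myogenic genes with a peak (66.7%, 30.0 to 90.3) and in 3 of 27 without (11.1%, 3.85 to 28.1). It was in 15.6% of all protein-coding genes and in 11.5% of the other protein-coding genes with a listed peak. The peaks of Hes1, Hes6 and Id2 lay outside this window, centred 896.5, 740 and 937.5 bases downstream of the listed start. An E-box counted in the window of these genes was therefore not in their peak. Genes of a family share ancestry, and these intervals cover counting error only.

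**Figure D4:**
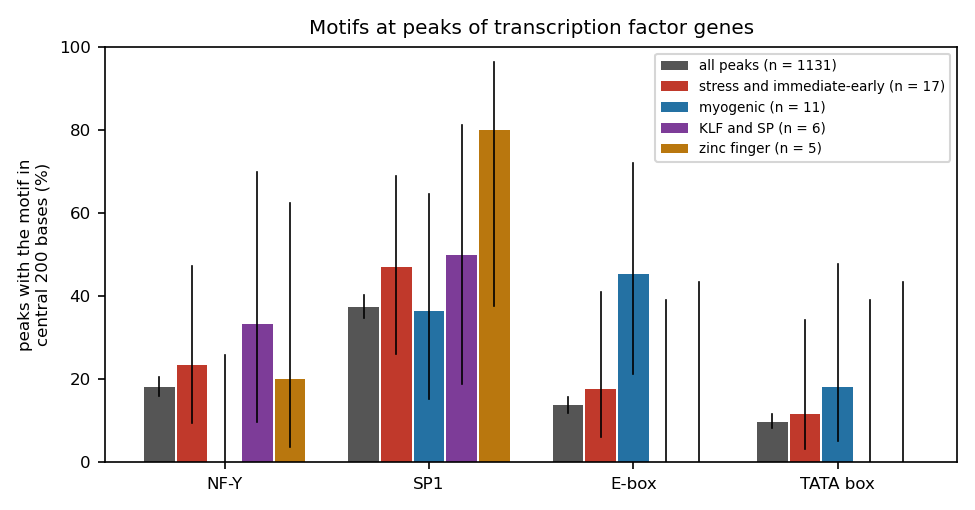
Share of peaks with each motif in their central 200 bases (y axis, percent) for 4 motifs (x axis), for all peaks and 4 groups of factor gene peaks. Bars are shares and lines are 95% Wilson intervals. The E-box is in 45.5% of myogenic peaks and 13.7% of all peaks, and no myogenic peak has the NF-Y motif in its form CCAATCA, whereas 5 of 11 have the shorter CCAAT (45.5%, beside 47.8% of all peaks).

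Finally, unevenness between libraries was tested, that is, differences beyond the noise of counting. In a chi-square test of the counts against the scaled library sizes, 11 of 43 peaks passed an adjusted p under 0.05 (25.6%), beside 17.9% of all peaks. They comprised 4 of 17 stress and immediate-early, 3 of 11 myogenic and 3 of 6 KLF and SP peaks, the peak of Zfp36, and 0 of 5 zinc-finger peaks. At Atf4 (adjusted p = 7.62e-09), Sp1 (9.81e-04) and Klf6 (0.00919) replicate 1 was the highest library, with a normalised count of 287.3, 152.4 and 169.1. The peak of Hes1 (0.0115) was lowest in replicate 3.

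Several weaker peaks were uneven. The peak of Zfp36 (adjusted p = 5.43e-11) had 0, 11 and 40 counts, where a count of 0 allows up to 3. Within Jun, the downstream peak in the exon (9.64e-07) had 9, 13 and 42 counts, highest in replicate 3, and the peak at the start (0.00421) was lowest in replicate 1. The mean does not describe the libraries at Zfp36, at the downstream peak of Jun or at the peak of Id1 9011.5 bases upstream. The upstream peaks of Id1 at 925 bases (0.00421; 41, 17 and 6 counts) and of Junb at 2499 bases (0.0420; 39, 21 and 10 counts) were lowest in replicate 3. Those of Id1 at 9011.5 bases (0.0484; 18, 0 and 10 counts) and of Sp1 at 479 bases (0.00492; 42, 5 and 15 counts) were lowest in replicate 2.

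Replicates 1 and 2 were sequenced with shorter reads than replicate 3. Between replicates 1 and 2 alone, 6 of 43 peaks passed the chi-square test, beside 7.60% of all peaks. Between replicates 2 and 3 alone 0 did, beside 2.74% of all peaks, with 10 factor gene peaks at an unadjusted p under 0.05. The part of read length in these differences was not tested. At the starts of Junb, Ier5, Ier5l, E2f3 and Nfya no difference beyond counting noise was detected. The highest peaks of Id1, Id2, Id3 and Myod1 missed the threshold, with unadjusted p of 0.0340, 0.0142, 0.00967 and 0.0204.

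**Figure D5:**
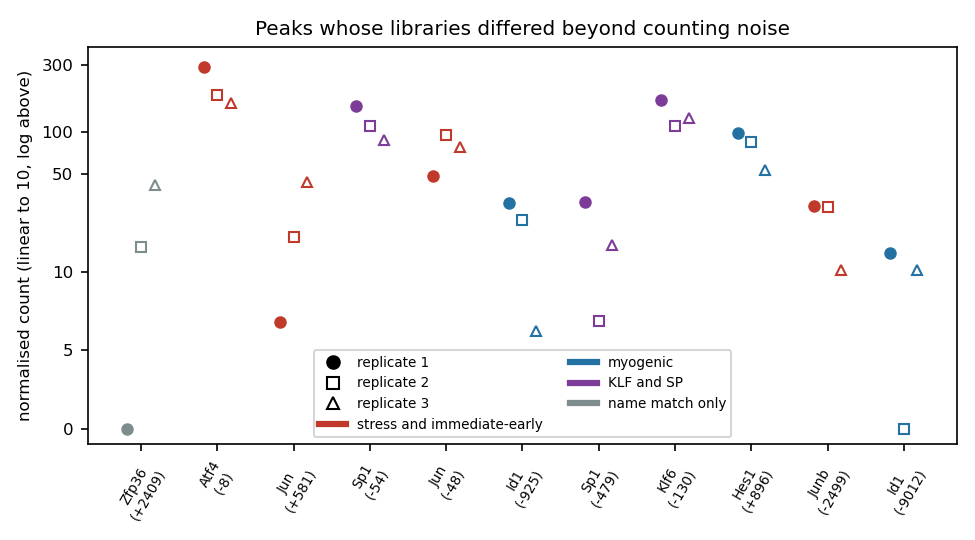
Normalised counts (y axis, linear up to 10 and logarithmic above) at the 11 peaks of factor genes that differed between libraries beyond the noise of counting (x axis, with the distance in bases from the listed start), coloured by group and ordered by adjusted p. Filled circles, squares and triangles are replicates 1, 2 and 3. Replicate 1 is the lowest library at Zfp36 and both peaks of Jun, and is the highest, for example, at Atf4, Klf6 and both peaks of Sp1.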

How the data were processed

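The members, groups, gene lists and tests were chosen with earlier results of these data known. Per the study's methods and the submitters' processing notes, the authors trimmed reads with Trimmomatic 0.39, aligned them to mm10 with STAR 2.7.9a, removed duplicate and multi-mapping reads, called peaks against IgG with MACS, unified them into 1 set and counted reads per peak with featureCounts. The methods describe no requirement that a peak be called in more than 1 library, so a listed peak may rest on 1 library alone. In the reporting summary, replicate 2 has the fewest called peaks of the TAF4A libraries and replicate 3 the most. The deposited values are whole-number counts per peak and TAF4A library. The methods also name DESeq2 normalisation, but the library totals differ (scaled sizes 1.32, 0.724 and 0.957 times their mean), so the values were treated as raw counts. IgG counts were not analysed here.

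The methods describe annotation with the nearest gene within 10000 bases. Of the 1131 peaks, 1009 were listed for a gene and 928 carry a gene symbol. For some members another gene start was nearer. Factor genes were found by symbol pattern. Genes without a peak were counted over protein-coding genes of GENCODE M21 (GRCm38), with listed symbols where these were given. A promoter peak had its centre within 1000 bases of a transcript start. The genes named were all stress and immediate-early, myogenic, NF-Y and zinc-finger genes with a peak, genes with 2 or more peaks, peaks that differed between libraries, peaks outside promoters and a fixed list of well-known factors without a peak. Results for 1 family of that list are not reported here. Klf2, Klf7, Klf10, E2f3, Zfp36l1, Atf3, Runx1 and the genes listed under other names were described in addition, to account for every member.

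Counts were scaled with TMM in edgeR 4.0.16 (R 4.3.3), and log2 values used a pseudocount of 1. The chi-square test ran on all 1131 peaks with Benjamini-Hochberg adjustment. When tested on simulated data with 200 of 1131 peaks changed 3-fold in 1 library, it recovered 92.0% of them, and 5.15% of calls were unchanged peaks. Motifs and sequences were read from GRCm38 with pysam 0.24.0, taking deposited peak starts as counted from 0. The remaining work was done in Python 3.11.15 (pandas 2.3.3, numpy 2.4.6, scipy 1.17.1), with plots from matplotlib 3.10.9. Alternatives covered scaling (with DESeq2 1.42.0 size factors), filters, pseudocount, promoter distance, motif length and leaving out each library.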

Additional observations from a re-analysis of the deposited data

How the results depend on the processing

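Of the 43 factor gene peaks, 11 differed between libraries. Without scaling 30 did, 10 of which were among the 11 (45.7% of all peaks passed), and 6 of 30 with at least 10 counts in every library (18.9% of all such peaks). With DESeq2 size factors 10 passed, with total counts 9 and at an adjusted p under 0.01 8, beside 16.8%, 16.1% and 9.73% of all peaks. Leaving out 1 library gave 0 to 10, with 0 without replicate 1 in the chi-square test (10 at an unadjusted p under 0.05, and 2.74% of all peaks), 10 without replicate 2 (16.2% of all peaks) and 6 without replicate 3 (7.60%). None of the 11 calls remained without replicate 1. The difference in level from other peaks, 0.83 on the log2 scale, became 0.34 per base and 1.20 for promoter peaks only, 0.63 with a pseudocount of 10 and 0.95 with at least 10 counts, with a range of 0.72 to 0.97 on leaving out 1 library. The share with the NF-Y motif, 16.3%, became 55.8% with the shorter CCAAT (45.2% of all peaks), and that with the SP1 motif, 44.2%, became 72.1% with GGCGG (67.2% of all peaks). A shorter motif occurs more often by construction, and other causes were not tested. The shares of factor genes with a peak, over all and for the stress and immediate-early, myogenic, KLF and SP, and zinc-finger groups, and of factor gene peaks at promoters stayed within their intervals. With at least 10 counts, Zfp36 and Zfp36l1 dropped out (2 of 30 genes with such names became 0). The share over all protein-coding genes did not, as 3.79% became 4.29% by distance to a transcript start and 2.66% for peaks with no library under 10 counts. All 129 peak levels under another scaling moved by less than the SD between libraries. No paired analysis was possible because no IgG counts were analysed here. Replicate 2 had the fewest counts, and 7 of its 43 peaks held fewer than 10.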
